A study of Danio rerio with 20 samples.

Results

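Testicular gene expression was compared between adult F1 male zebrafish of a TCDD lineage and of a DMSO lineage, on the 10 F1 arrays of a series of 20. The members are the columns of 5 F1 TCDD fish and 5 F1 DMSO fish, placed in their groups by sample title. All fish were wild type, of the AB strain and 1 year old. The F0 parents of the F1 TCDD group were exposed to waterborne dioxin (TCDD, 2,3,7,8-tetrachlorodibenzo-p-dioxin) at 50 pg/ml for 1 h, at 3 and again at 7 weeks after fertilization. In the F1 DMSO group the parents had received the solvent, dimethyl sulfoxide, in its place. No F1 fish was itself treated with TCDD or solvent. The other 10 arrays are the F2 TCDD and F2 DMSO groups, 5 fish each, whose grandparents had been treated in the same way. The labels do not say which parent of a fish had been exposed, or from how many families and tanks the fish came, so each p-value reflects only how these individual fish vary.

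TCDD is a long-lived ligand of the aryl hydrocarbon receptor, a transcription factor that, with its partner Arnt, induces genes of xenobiotic metabolism such as those of the cytochrome P450 1 family. In zebrafish, Ahr2 carries most of the response to dioxin. The germ cells that give rise to the F1 generation were inside the F0 fish when it was exposed, so the F1 comparison addresses the offspring of exposed germ cells. A zebrafish testis holds germ cells in cysts surrounded by Sertoli cells, with steroid-producing Leydig cells between the tubules.

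The values are the deposited log2 signals, 1 per feature and array. The 75212 features hold 65942 distinct profiles, each used once, of which 20843 carry a single gene symbol. Replicate 5 of both groups had a lower median signal, 6.22 on the TCDD array and 6.16 on the DMSO array, than replicates 1 to 4, whose medians ran from 6.65 to 6.71 in TCDD fish and from 6.63 to 6.67 in DMSO fish. The F2 arrays had medians between 6.18 and 6.26. The lineage difference was therefore estimated with a 2-level term for the array set, replicates 1 to 4 against replicate 5, so that 4 TCDD and 4 DMSO fish were compared within the first set and 1 of each within the second. With 10 arrays, their number sets the precision.

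The array labelled F1 TCDD replicate 2 did not look like testis. The mean levels of its Sertoli cell, Leydig cell, spermatogonia, spermatocyte and spermatid markers were each the lowest of all 20 arrays, and those of its liver and intestine markers the highest. The gene insl3, which encodes a Leydig cell peptide hormone, had a log2 signal of 5.72 there, against 12.22, 12.42, 12.62 and 11.39 in the other TCDD fish and 12.45, 12.56, 12.54, 12.49 and 11.62 in the DMSO fish. The germ cell gene dazl, an RNA-binding protein needed for germ cell development, stood at 6.10 on that array, against 12.26, 12.67, 12.68 and 11.45 in the other TCDD fish and 12.46, 12.47, 12.53, 12.59 and 12.21 in the DMSO fish. Both genes were thus far lower on this array than on any other F1 array.

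The 7 Sertoli cell genes averaged 7.05 on that array, between 10.62 and 11.33 in the other TCDD fish and between 10.86 and 11.54 in the DMSO fish. The 12 liver genes, which code for blood plasma proteins, averaged 12.39 on it, between 7.07 and 11.55 in the other TCDD fish and between 6.01 and 11.35 in the DMSO fish. On 3620 profiles this array lay at least 4-fold below the mean of its set's other arrays and on 2488 at least 4-fold above, where the same counts for each of the other 7 first-set arrays ran from 40 to 225 and from 15 to 410. Counts, level bins, array summaries and the leading genes are given with this array and without it, as 5 or 4 TCDD fish against 5 DMSO fish, and marker and pathway lists mainly without it.

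**Figure D1:**
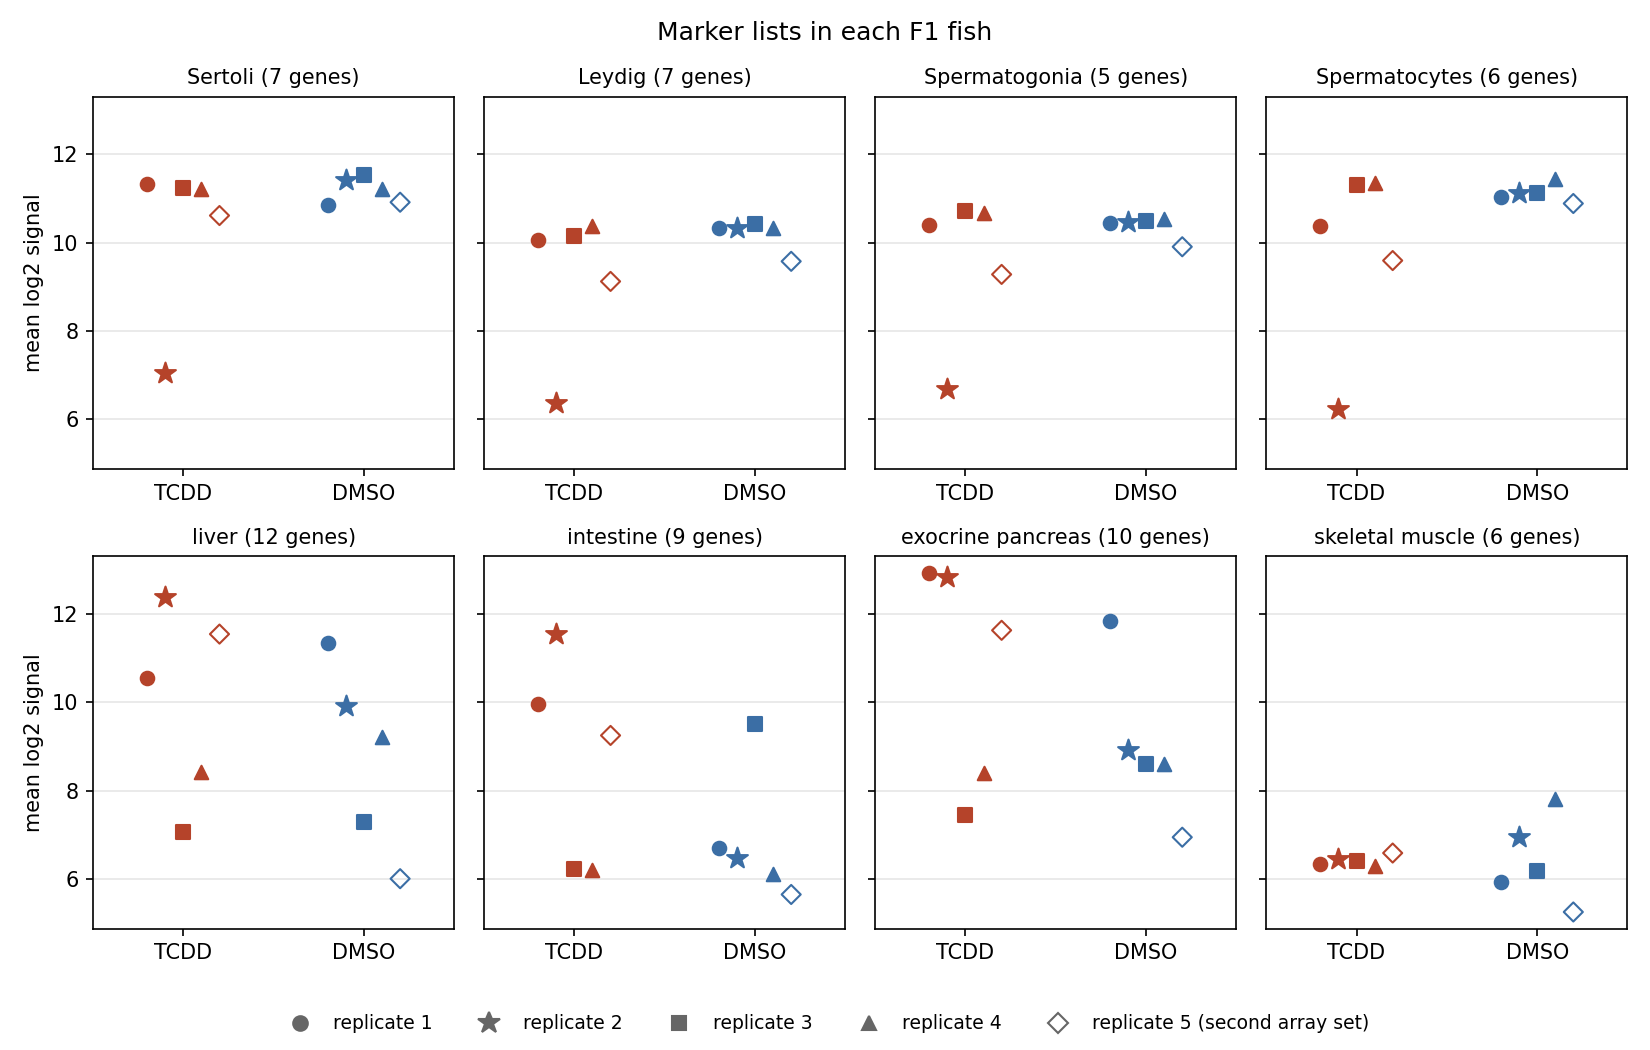
Mean log2 signal (vertical axis) of 4 testis and 4 other marker lists in each F1 fish, TCDD left and DMSO right. Each point is 1 fish, its shape gives the replicate number, stars are replicate 2, and open diamonds are replicate 5. TCDD replicate 2 stands near 6 to 7 for the testis lists, below all other fish, while the digestive-organ lists spread over several log2 units in both groups.

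Markers of digestive organs also varied among the remaining fish of both groups. Over 31 genes of liver, intestine and exocrine pancreas, chosen after the data were seen, the mean level was 11.14, 12.30, 6.95, 7.78 and 10.91 in TCDD replicates 1 to 5, and 10.16, 8.60, 8.36, 8.11 and 6.21 in DMSO replicates 1 to 5. TCDD replicates 1 and 5 and DMSO replicate 1 were thus high besides TCDD replicate 2, and DMSO replicate 5 was the lowest. Without TCDD replicate 2, the median log2 change, TCDD minus DMSO, was 0.66 for liver (11 of 12 genes higher). It was 1.09 for intestine (8 of 9) and 0.92 for pancreas (10 of 10), where 52.5% of all profiles were higher. In the first set the remaining fish overlapped, whereas the pair of replicates 5 stood at 10.91 against 6.21. The pancreatic trypsin gene prss1 was likewise highest in TCDD replicates 1, 2 and 5 and DMSO replicate 1, and stood at 13.25, 13.82, 7.97, 9.34 and 12.71 in the TCDD fish, against 12.93, 10.51, 9.95, 10.11 and 7.59 in the DMSO fish. In the F2 fish the 31 genes averaged between 6.29 and 11.26. How far these organs' RNA enters the lineage comparison was not tested beyond the fit that follows. A fit that adds this level as a covariate was run without TCDD replicate 2, and its values are given beside the level bins, the odorant receptor run and the gene lists.

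No profile differed between the lineages past an adjusted p of 0.05, either over 10 arrays or without TCDD replicate 2 (limma, Benjamini-Hochberg over 65942 profiles). The smallest adjusted p was 0.224 over 10 arrays and 0.499 without that array. At an unadjusted p under 0.05 there were 5896 profiles over 10 arrays, 3579 higher (5.43%) and 2317 lower (3.51%) in TCDD fish, which together is 8.94% of all profiles. When TCDD replicate 2 was left out there were 5122, 2753 higher (4.17%) and 2369 lower (3.59%), or 7.77%. Without the array-set term the counts were 2556 over 10 arrays and 1425 without that array, where 3297 profiles would pass by the threshold alone. With the array-set term, 3923 profiles were at that threshold in both fits, all with the same sign: 66.5% of the first list and 76.6% of the second.

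The count depended on single fish. Over 10 arrays it was 9789 without TCDD replicate 4 and 3590 without TCDD replicate 5 or DMSO replicate 5. It was 3917 without DMSO replicate 2 and 3747 without DMSO replicate 4. Leaving out TCDD replicate 4 gave 1 profile past the adjusted threshold, described below, and leaving out any other single array gave 0.

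Most profiles moved little. The median log2 change was 0.05 and the median absolute change 0.24 over 10 arrays, with a median standard error (SE) of 0.19. The 9-array fit had a median absolute change of 0.16 and a median SE of 0.16. At least 2-fold differences numbered 2861 over 10 arrays, 1245 higher and 1616 lower (4.34%), against 599 without the array, 401 higher and 198 lower (0.908%). The 95% interval of the change lay within 1 log2 unit of 0 for 73.3% of profiles over 10 arrays and for 86.6% without TCDD replicate 2. A 2-fold difference in either direction lay outside the interval of those profiles. Profiles on which the lineages did not overlap numbered 573 over 10 arrays (0.869%) and 670 without TCDD replicate 2 (1.02%).

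The direction of the change followed the expression level. When profiles were divided into 10 equal bins by their mean signal over the F1 arrays, those of low to middle level were mostly higher in TCDD fish and those of high level mostly lower. Over 10 arrays the median change was 0.10 in the lowest bin, 0.14 in the third, 0.01 in the seventh and −0.22 in the highest. In the 9-array fit these values were 0.04, 0.07, −0.00 and −0.10. In the highest bin 32.2% of profiles were higher in TCDD fish over 10 arrays and 33.0% without that array, against 69.8% and 60.7% in the lowest bin. The difference between the highest and the lowest bin was −0.32 over 10 arrays and −0.14 without TCDD replicate 2.

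Individual fish differed in how strongly they showed this. In the highest bin, the median difference from the DMSO mean of the same set was −0.10 for TCDD replicate 1, −0.65 for replicate 2, −0.02 for replicate 3, 0.01 for replicate 4 and −0.33 for replicate 5. Replicates 3 and 4 were thus close to 0 at high levels, although in the third bin they stood at 0.12 and 0.05. TCDD replicates 1, 2 and 5, the fish with the larger shortfall at high levels, were also the TCDD fish with digestive-organ marker means above 10. DMSO replicate 1 had a marker mean of 10.16. Its highest-bin mean was 10.65, beside 10.67, 10.65 and 10.67 in DMSO replicates 2 to 4. For TCDD replicate 5 the DMSO reference was 1 fish, DMSO replicate 5, with a marker mean of 6.21. The part of these organs in the pattern was not tested. With the digestive-organ level as a covariate, and without TCDD replicate 2, the difference between the highest and lowest bin was −0.11. Within replicates 1 to 4 alone, and without TCDD replicate 2, it was −0.08, so that the pair of replicates 5 made up part of the −0.14. In F2 the median changes of the 10 bins lay between −0.02 and 0.01.

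**Figure D2:**
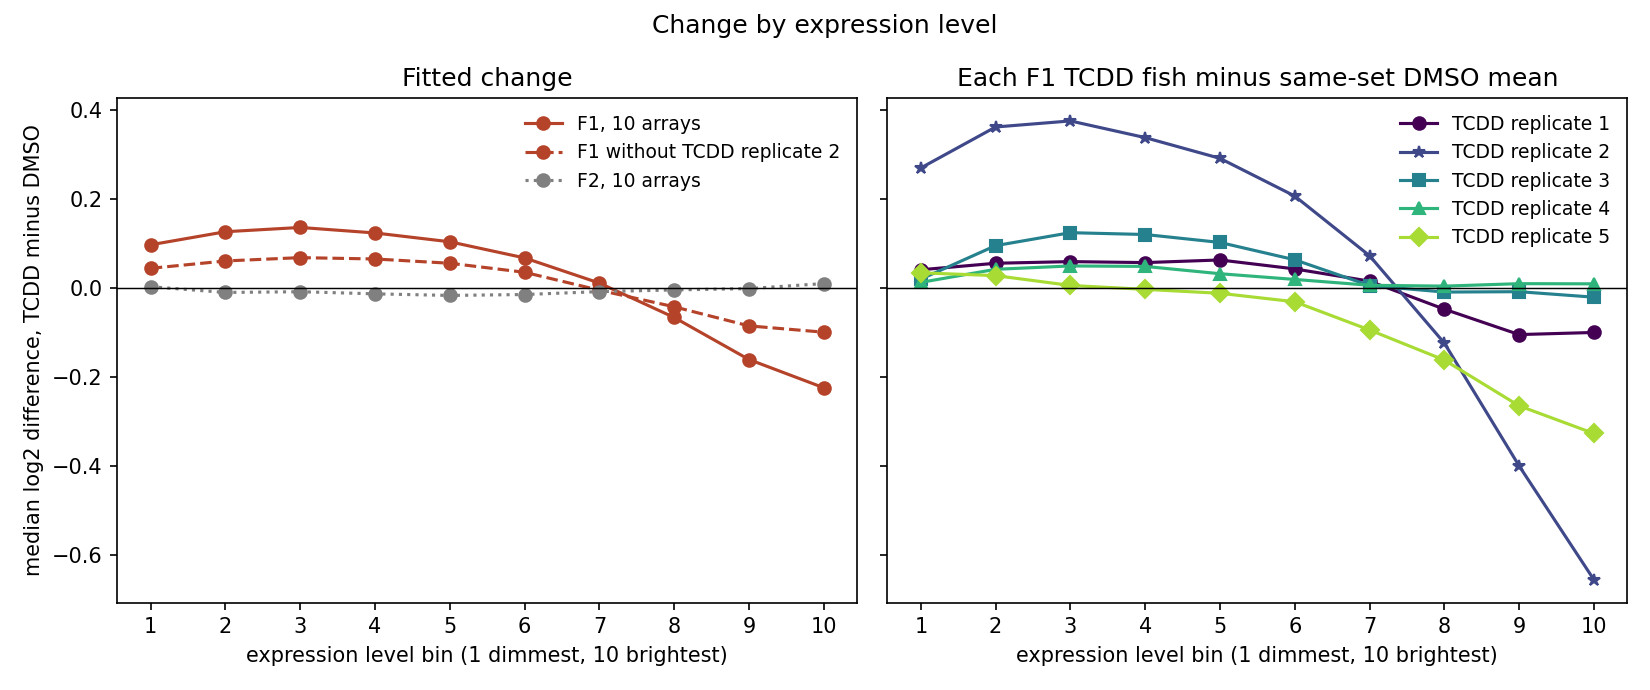
Median log2 difference, TCDD minus DMSO (vertical axis), by expression level bin (horizontal axis, dimmest to brightest), for the fits (left) and for each F1 TCDD fish against the DMSO mean of its array set (right). Both F1 lines pass 0 near the seventh bin, ending at −0.22 with TCDD replicate 2 and −0.10 without it, and replicates 3 and 4 end within 0.02 of 0.

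The interquartile range of log2 signal over profiles, a measure of how far low and high signals lie apart, was taken for each array. It was 3.15, 2.81, 3.10, 3.18 and 3.15 in TCDD replicates 1 to 5, against 3.24, 3.26, 3.23, 3.24 and 3.2 in DMSO replicates 1 to 5. Every TCDD array lay below every DMSO array. The TCDD fish did not rank on the range as in the level bins. There replicate 5 had −0.33 in the highest bin and replicate 3 had −0.02. The mean difference was −0.15 over 10 arrays and −0.08 without TCDD replicate 2. An exact permutation test over fish within array sets gave p = 0.0143, two-sided, both with and without that array, the smallest p that either design allows. After Benjamini-Hochberg adjustment over the 4 array summaries tested the exact p was 0.0571 in both, which misses the threshold. A summary at the smallest p could pass only if others were small as well. The miss is therefore no measure of the size of the difference.

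Digestive-organ markers varied beside the range, and their part in the difference was not tested. The array with the highest marker mean, TCDD replicate 2 at 12.30, had the lowest range. TCDD replicates 3 and 4, with marker means of 6.95 and 7.78, had ranges of 3.10 and 3.18, and DMSO replicate 1, with a marker mean of 10.16, had a range of 3.24. In F2 the mean ranges were 3.14 in TCDD fish and 3.14 in DMSO fish (exact permutation p = 0.960). Ranges in F2 TCDD replicates 1 to 5 were 3.23, 3.22, 2.96, 3.12 and 3.18, at marker means of 6.29, 7.93, 11.10, 9.88 and 8.35. Those in F2 DMSO replicates 1 to 5 were 3.21, 3.14, 3.13, 3.14 and 3.08, at marker means of 7.83, 8.12, 8.73, 11.26 and 10.31. The range was thus mostly lower in F2 fish with higher marker means, with F2 DMSO replicate 4 as an exception. The other 3 summaries were the median, the mean of the lowest bin and the mean of the highest bin. Their differences were 0.03, 0.09 and −0.27 over 10 arrays and 0.03, 0.03 and −0.08 without TCDD replicate 2, with adjusted p from exact permutation between 0.0571 and 0.1.

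**Figure D3:**
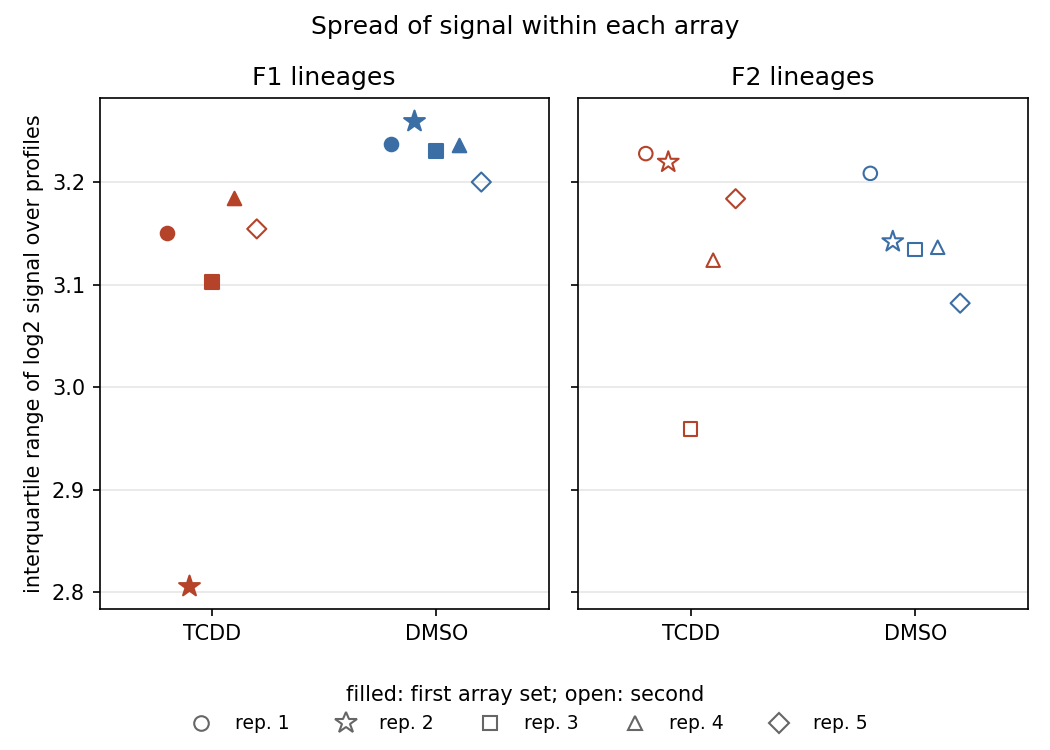
Interquartile range of log2 signal over profiles (vertical axis) for each fish, TCDD left and DMSO right, in F1 and in F2. Filled points are the first array set and open points the second. All 5 F1 TCDD arrays lie below the 5 F1 DMSO arrays, whereas the F2 groups overlap.

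The fish of the TCDD group also varied more among themselves, mainly through 1 array. Within replicates 1 to 4, the median over profiles of the log2 ratio of the TCDD SD over the DMSO SD was 0.92 with TCDD replicate 2 and 0.16 without it. In the highest level bin the median SD was 0.55 in TCDD fish and 0.15 in DMSO fish with that array, and 0.22 against 0.15 without it. In the lowest bin the SDs without it were 0.19 and 0.19. Without that array the median log2 ratio was 0.01 in the lowest bin and 0.56 in the highest, so the difference was larger at high expression levels. It sets 3 TCDD fish against 4 DMSO fish. An SD over fewer fish tends to come out lower, so an excess at low levels is not excluded.

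The profile with the smallest p, feature 13030713, carries no gene symbol in the annotation and was singled out after its values were seen. Its log2 signal was 5.92, 5.67, 5.47, 6.48 and 5.25 in the F1 TCDD fish, against 7.80, 7.60, 7.58, 7.75 and 7.46 in the F1 DMSO fish. The highest TCDD fish was below the lowest DMSO fish. The change was −1.88 ± 0.19 (SE) over 10 arrays, with an unadjusted limma p of 3.4e-06, and −1.84 without TCDD replicate 2. Its adjusted p was 0.0172 without TCDD replicate 4. In the F2 fish, which share no array with F1, the same feature was also lower in the TCDD lineage. The log2 change was −1.18, with a limma p of 0.00724 unadjusted and 0.536 adjusted over all profiles. The F2 TCDD fish stood at 5.96, 6.67, 5.55, 5.65 and 5.92, and the F2 DMSO fish at 8.45, 6.70, 6.97, 6.48 and 7.04, so that here the groups overlapped.

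Among profiles with a single gene symbol and no overlap between groups, the 12 higher and 12 lower with the smallest p are described next, for each fit. They were chosen for that separation, so their values are a description and the p-values no independent test. None passed the adjusted threshold: the adjusted p was 0.468 for all of them over 10 arrays and 0.628 without TCDD replicate 2. Of the 24 genes, 12 had the same sign in the F2 fish, and 14 of the 24 named without TCDD replicate 2. In each set of 24, 1 gene was at an unadjusted p under 0.05 in F2, where 5.55% of all profiles were.

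The gene ndufa4b (feature 12983546), a relative of a mitochondrial respiratory chain subunit, had signals of 10.32, 12.41, 10.11, 9.72 and 10.49 in TCDD fish, against 7.97, 8.01, 9.20, 8.86 and 9.49 in DMSO fish. Its change was 1.91 ± 0.52 (SE) over 10 arrays and 1.42 ± 0.29 without TCDD replicate 2, the largest among the higher genes named. In F2 the change was 0.37. Signals of 12.05, 10.88, 12.11 and 11.02 stood in F2 TCDD replicates 3 and 4 and DMSO replicates 4 and 5, the F2 fish highest in digestive-organ markers. F2 TCDD replicate 1, lowest in those markers, stood at 10.12, and F1 TCDD replicate 3 and DMSO replicate 1 did not follow them either. The part of these organs in its change was not tested. The gene atf3 (feature 13097880), a transcription factor induced by cellular stress, stood at 7.83, 7.96, 7.60, 8.58 and 8.29 in TCDD fish and at 7.49, 7.26, 7.15, 7.20 and 7.02 in DMSO fish. Its change was 0.83 ± 0.20 (SE) over 10 arrays and 0.85 ± 0.21 without TCDD replicate 2. In F2 its change was −0.44, and the difference between the F1 and F2 changes, 1.27, had an adjusted limma p of 0.361.

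The gene selp (feature 13104146) encodes P-selectin, an adhesion receptor of activated endothelium. It stood at 6.67, 7.59, 6.79, 6.74 and 6.58 in TCDD fish, against 5.86, 6.40, 6.11, 6.04 and 5.96 in DMSO fish, a change of 0.80 over 10 arrays and 0.63 without TCDD replicate 2. Apart from the high value of TCDD replicate 2, the TCDD fish lay close together and above every DMSO fish. The gene adgre13 (feature 13170202), an adhesion G protein-coupled receptor, had the smallest p of the higher genes without TCDD replicate 2. It stood at 8.22, 10.02, 8.36, 8.11 and 7.88 in TCDD fish and at 7.67, 7.63, 7.41, 7.72 and 7.04 in DMSO fish, with a change of 1.03 ± 0.34 (SE) over 10 arrays, and of 0.67 ± 0.11 without TCDD replicate 2 at an unadjusted limma p of 0.000252.

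The other higher genes over 10 arrays had changes between 0.36 and 0.79. They were fabp10b, a fatty acid binding protein, slc35e4, a member of a nucleotide-sugar transporter family, utrn, which encodes the dystrophin relative utrophin, psmb11a, a proteasome subunit, cart4, a neuropeptide precursor, and fam131bb, lrrc18b, si:dkey-1k23.3 and si:ch211-256m1.8. Of these lrrc18b, a leucine-rich repeat protein, was also higher in the F2 TCDD fish, with a change of 0.52 in F1 and 0.52 in F2 and an adjusted limma p of 0.51 in F2. Without TCDD replicate 2 the list also held dohh, an enzyme that modifies the translation factor eIF5A, egln2, an oxygen-sensing prolyl hydroxylase, agap2, a regulator of Arf GTPases, the adult alpha globin gene hbaa2, and dcsignlg, with changes between 0.41 and 0.78. Over 10 arrays these 5 had changes between 0.51 and 0.70.

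The lower genes were led by sgms2a (feature 12958032), which encodes a sphingomyelin synthase. Its signals were 7.61, 7.09, 8.11, 8.26 and 7.07 in TCDD fish, against 9.79, 8.68, 9.13, 9.33 and 8.80 in DMSO fish. The change was −1.52 ± 0.27 (SE) over 10 arrays and −1.35 ± 0.24 without TCDD replicate 2, with unadjusted limma p of 0.000289 and 0.000375. In F2 it was −0.70, with an adjusted limma p of 0.919. The gene ppef1 (feature 12975325), a calcium-binding protein phosphatase, stood at 7.53, 5.66, 7.51, 7.28 and 6.69 in TCDD fish and at 8.12, 8.03, 8.31, 8.19 and 8.82 in DMSO fish. It had a change of −1.36 over 10 arrays and −1.04 without TCDD replicate 2, whose own value was the lowest.

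The remaining lower genes of the first list include atg4b, a protease of autophagy, cyb5r4, a cytochrome b5 reductase, and polr2f, a subunit of RNA polymerase. They also include trmu, a mitochondrial tRNA-modifying enzyme, zranb1b, a deubiquitinase, arhgef10la, si:dkey-21o22.2, si:ch211-63p21.1, and the odorant receptor genes or90b1 and or90b2, which are described below. Without the receptors, their changes lay between −1.12 and −0.45. Leaving out TCDD replicate 2 added myo10l1, a myosin, mxb, of the interferon-induced Mx family, inka1b, si:ch73-167f10.1, si:dkeyp-53d3.5 and si:ch211-57n23.4, with changes between −1.07 and −0.64. Over 10 arrays these 6 had changes between −1.53 and −0.60, and inka1b had −1.18 there against −0.64 without that array. In mxb TCDD replicate 2 was the highest TCDD fish, at 7.47, and stood above every DMSO fish.

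**Figure D4:**
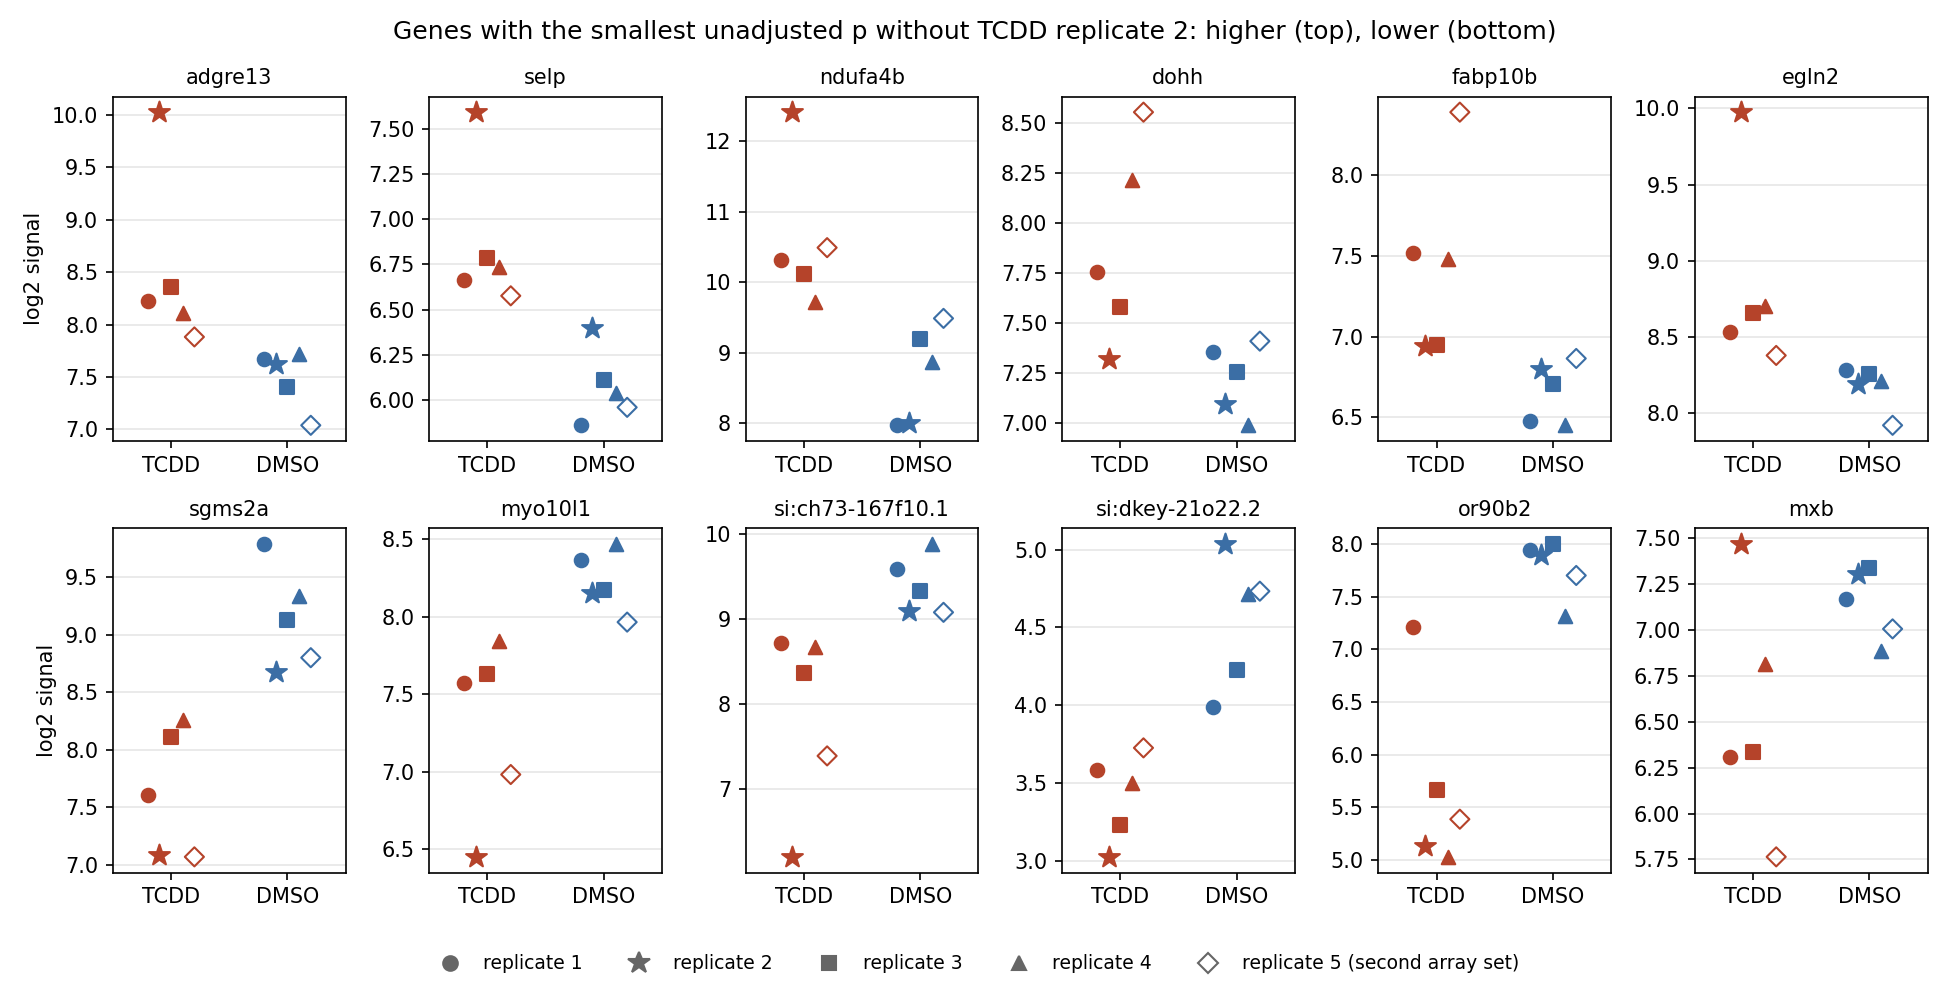
Log2 signal (vertical axes, differing in range) of the 6 higher and 6 lower genes with the smallest unadjusted p without TCDD replicate 2, TCDD left and DMSO right, 1 point per fish. Stars mark replicate 2 and open diamonds replicate 5. In adgre13, selp, ndufa4b and egln2 TCDD replicate 2 is the highest point, in dohh it lies within the DMSO range, and in mxb above it.

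Both odorant receptor genes lie in a run of 17 neighbouring odorant receptor genes between or90a1 and or90h4 in the RefSeq gene order. Odorant receptors are G protein-coupled receptors best known from the olfactory epithelium. Of the 17 genes, 9 had a feature of their own, and all 9 were lower in TCDD fish, 7 of them at an unadjusted p under 0.05 in either fit. The run was chosen because or90b1 and or90b2 were among the genes named, so these counts are a description. Over all profiles, 3.51% were lower at that threshold over 10 arrays and 3.59% without TCDD replicate 2. The median change of the 9 genes was −1.09 over 10 arrays and −0.95 without TCDD replicate 2, against 0.05 and 0.02 over all profiles.

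The largest change was that of or90b2 (feature 13216993), at 7.21, 5.13, 5.66, 5.03 and 5.39 in TCDD fish, against 7.94, 7.90, 8.0, 7.31 and 7.70 in DMSO fish. The change was −2.09 ± 0.39 (SE) over 10 arrays and −1.93 ± 0.40 without TCDD replicate 2. TCDD replicate 1 was the nearest to the DMSO fish in this gene. Its neighbour or90e2 stood at 5.52, 4.86, 4.72, 4.67 and 4.8 in TCDD fish and at 6.27, 5.51, 6.29, 5.35 and 7.04 in DMSO fish, a change of −1.18 over 10 arrays and −1.19 without TCDD replicate 2. The gene or90b1 stood at 4.18, 3.00, 3.87, 3.23 and 3.73 in TCDD fish and at 5.09, 4.41, 4.83, 4.35 and 5.14 in DMSO fish, a change of −1.16 over 10 arrays and −1.02 without TCDD replicate 2. In or90b1 and or90b2 the groups did not overlap, whereas in or90e2 TCDD replicate 1 lay among the lower DMSO fish.

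The others at that threshold were or137-9 with a change of −1.39, or90d2 with −1.09, or90d1 with −0.88 and or90d3 with −0.54 over 10 arrays. Leaving out TCDD replicate 2 gave −1.23, −0.93, −0.95 and −0.56 for these 4 genes. The genes at the ends of the run, or90a1 and or90h4, had changes of −0.35 and −0.26 with unadjusted limma p of 0.101 and 0.190. With the digestive-organ level as a covariate, and without TCDD replicate 2, the median change of the 9 genes was −1.02 and 7 of 9 were again lower at an unadjusted p under 0.05. In F2, 7 of the 9 were lower and 0 at an unadjusted p under 0.05, where 2.57% of all profiles were lower at it, with a median change of −0.08. For or90b1 and or90b2 the difference between the F1 and F2 changes had an adjusted limma p of 0.361 and 0.416. There were 111 other odorant receptor genes with a feature of their own. Of these, 9 were higher and 1 lower at an unadjusted p under 0.05 over 10 arrays, with a median change of 0.07. Of all profiles, 5.43% were higher and 3.51% lower at that threshold, with a median change of 0.05. Odorant receptor genes of one run are close paralogs, so signal may be shared between them and the 9 values are not independent. By mean level the 9 genes lay in bins 1 to 6, with or90h4 in the first and or90b1 and or90d2 in the second. Signal near background cannot be set apart in such dim profiles.

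**Figure D5:**
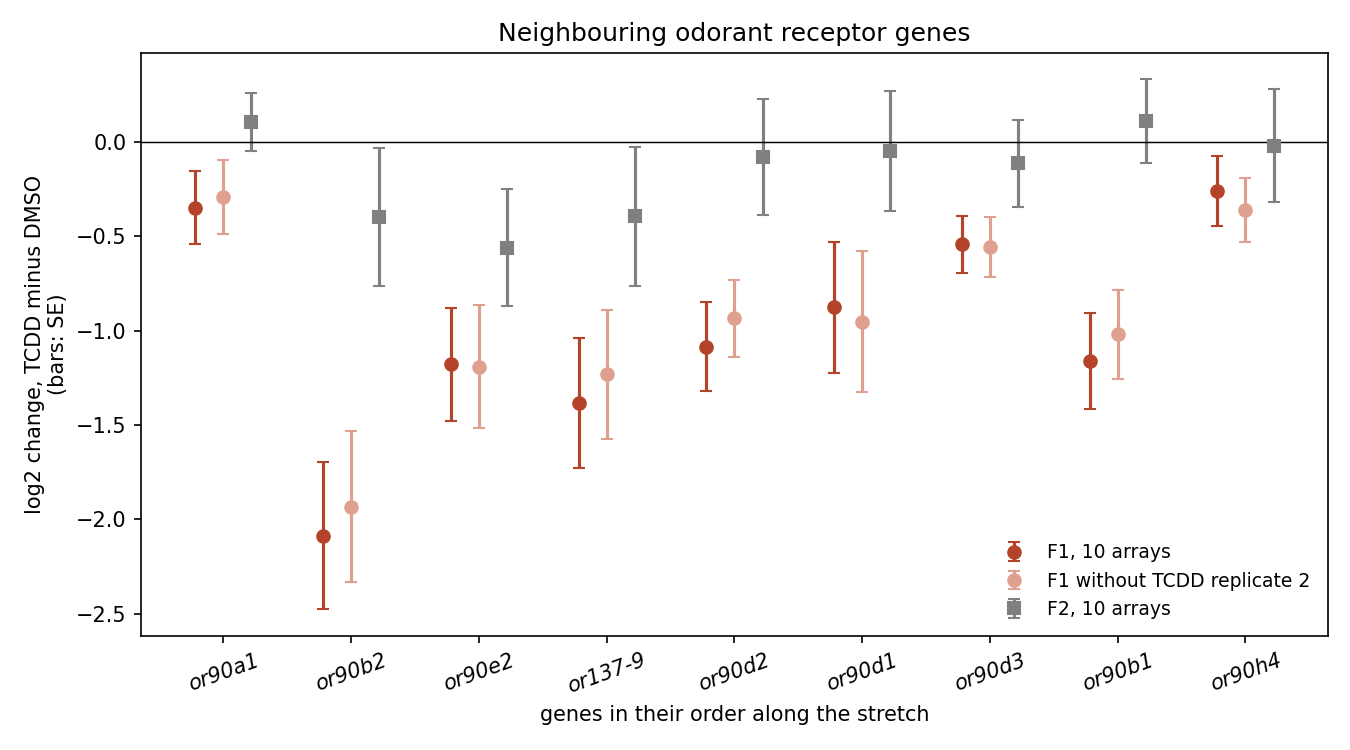
Log2 change, TCDD minus DMSO (vertical axis), of 9 neighbouring odorant receptor genes in their order along the run (horizontal axis), in F1 with and without TCDD replicate 2 and in F2 (bars are SE). All F1 points lie below 0, the lowest at −2.09 for or90b2, and the F2 points lie nearer to 0 in every gene.

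Lists of genes for the cell types and pathways of the testis were then read. No member of any list passed the adjusted threshold in either fit, and the members named below at an unadjusted p under 0.05 had an adjusted limma p of 0.468 over 10 arrays or 0.628 without TCDD replicate 2. In bulk tissue, fewer cells of a type and less RNA per cell cannot be told apart. Over 10 arrays the testis lists had median changes between −1.34 and −0.90, which rest on TCDD replicate 2, and values without it follow.

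Spermatocyte genes, which act in meiosis, had lower means in TCDD fish without TCDD replicate 2 in all 6 genes measured, with a median change of −0.42 against 0.02 over all profiles. In the highest level bin, which holds 5 of the 6 genes, the median of all profiles was −0.10 and 33.0% were higher. None reached an unadjusted p under 0.05, against 3.59% of all profiles lower at it. The meiotic chromosome protein gene sycp3 stood at 10.40, 7.48, 11.62, 11.65 and 9.04 in TCDD fish and at 11.42, 11.46, 11.19, 11.85 and 10.60 in DMSO fish. Its change without TCDD replicate 2 was −0.55 ± 0.33 (SE), with TCDD replicates 1 and 5 low and replicates 3 and 4 among the DMSO fish. The recombinase gene dmc1 was likewise lowest, after TCDD replicate 2, in TCDD replicates 1 and 5, at 10.01, 5.89, 11.51, 11.55 and 10.59 in TCDD fish and 10.81, 10.97, 11.32, 11.58 and 11.92 in DMSO fish, a change of −0.41 ± 0.37 (SE). TCDD replicates 1 and 5 were also the remaining TCDD fish with digestive-organ means of 11.14 and 10.91. With that level as a covariate the median change of the list was −0.24, with 6 of 6 lower and 0 at an unadjusted p under 0.05.

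Spermatid genes had lower means in 3 of 3 genes, with a median change of −0.24, and −0.01 with the covariate. The list mean was 10.06, 10.79, 11.02 and 9.07 in TCDD replicates 1, 3, 4 and 5. In DMSO replicates 1 to 5 it was 10.73, 10.39, 10.56, 10.62 and 10.55. TCDD replicates 3 and 4 were thus above every DMSO fish, and TCDD replicates 1 and 5 below every DMSO fish. The pair of replicates 5 lay furthest apart. Without TCDD replicate 2, 52.5% of all profiles were higher, but 35.2% in the ninth level bin and 33.0% in the highest. The spermatogonial and early germ cell list had a median of −0.15 over 5 genes, 2 higher and 3 lower, and −0.04 with the covariate. Of these dnd1, which protects germ cell mRNAs, was higher at an unadjusted limma p of 0.0229. It stood at 8.70, 7.00, 8.64, 8.50 and 7.76 in TCDD fish and at 8.30, 8.27, 8.35, 8.18 and 7.69 in DMSO fish, with a change of 0.28 ± 0.10 (SE) without TCDD replicate 2 and −0.03 with it. Within each array set, every TCDD fish other than replicate 2 was above every DMSO fish. With the covariate the change of dnd1 was 0.29, at an unadjusted limma p of 0.0264. In F2 the change of dnd1 was −0.11.

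Sertoli cell genes had a median change of −0.05 without TCDD replicate 2 and −0.04 with the covariate, 3 of 7 higher and 4 lower, and none at an unadjusted p under 0.05. The hormone gene amh, which restrains germ cell proliferation in zebrafish, had a change of 0.42 ± 0.27 (SE). The transcription factor gene sox9a had a change of −0.75 ± 0.38, with 8.82, 8.85, 9.44, 9.05 and 8.01 in TCDD fish and 8.47, 9.73, 10.25, 9.71 and 9.83 in DMSO fish. Unlike the other 6 Sertoli genes, sox9a was not at its lowest on the array labelled TCDD replicate 2.

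Leydig cell and steroid synthesis genes showed small differences without TCDD replicate 2. Leydig genes had a median change of −0.22, with 6 of 7 lower, and −0.18 with the covariate, with 7 of 7 lower. The list mean ran from 9.12 to 10.38 in TCDD fish other than replicate 2 and from 9.58 to 10.41 in DMSO fish. Without that array, 52.5% of all profiles were higher, but 35.2% in the ninth level bin and 33.0% in the highest. The steroid synthesis list had a median of 0.04 over 9 genes, and −0.04 with the covariate. The luteinizing hormone receptor gene lhcgr was lower at an unadjusted limma p of 0.0387, with a change of −0.39 ± 0.16 (SE), and of −0.32 with the covariate, where the unadjusted limma p was 0.0605. Its signals were 7.39, 6.44, 7.62, 7.42 and 6.27 in TCDD fish, against 7.35, 8.07, 7.92, 7.84 and 6.88 in DMSO fish. In the first set DMSO replicate 1 lay below TCDD replicates 1, 3 and 4, and the other DMSO fish above them. The cholesterol carrier gene star had a change of 0.04 ± 0.15, and the androgen synthesis genes cyp17a1 and cyp11c1 had −0.37 ± 0.20 and −0.06 ± 0.15.

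The ovarian aromatase gene cyp19a1a, which converts androgens to estrogens, was higher at an unadjusted limma p of 0.0265 over 10 arrays and 0.0307 without TCDD replicate 2. It stood at 6.36, 6.42, 6.65, 6.24 and 5.12 in TCDD fish, against 6.10, 6.16, 5.98, 6.10 and 4.96 in DMSO fish, a change of 0.30 ± 0.11 (SE) over 10 arrays and 0.29 ± 0.11 without that array. Within each set every TCDD fish was above every DMSO fish, and its mean level put it in the fourth bin, where 61.9% of profiles were higher without TCDD replicate 2. With the covariate the change was 0.32, at an unadjusted limma p of 0.0230. In F2 it was −0.05. The array labelled TCDD replicate 2, which did not look like testis, stood at 6.42, within the range of the other TCDD fish of its set. Whether this signal came from testis cells was not tested. Steroid and gonadotropin receptor genes had a median of 0.10, and 0.09 with the covariate, and esr1, esr2a and esr2b, which encode estrogen receptors, had changes of 0.01 ± 0.16, 0.32 ± 0.22 and 0.30 ± 0.30.

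The aryl hydrocarbon receptor list had 12 measured genes and none at an unadjusted p under 0.05 in either fit, against 8.94% and 7.77% of all profiles. The gene cyp1a, the usual marker of receptor activation, had only a feature shared with another gene and is given no value here. In the 9-array fit the median change was 0.08, 10 of 12 genes were higher, where 52.5% of all profiles were, and 10 of 12 had a 95% interval within 1 log2 unit of 0. With the covariate the median was 0.02 and 8 of 12 were higher. The list mean was highest of all 20 arrays on TCDD replicate 2, at 8.61. In TCDD replicates 1, 3, 4 and 5 it was 8.34, 7.84, 7.87 and 7.71. In DMSO replicates 1 to 5 it was 8.02, 7.96, 8.18, 7.92 and 7.17. Without TCDD replicate 2 the groups thus overlapped in the first set, and DMSO replicate 5 was the lowest F1 fish. The receptor gene ahr2 stood at 9.94, 11, 9.47, 9.58 and 9.58 in TCDD fish and at 9.57, 9.85, 9.54, 9.41 and 8.36 in DMSO fish. Its change was 0.33 ± 0.21 (SE) without TCDD replicate 2. In the first set the remaining fish overlapped, whereas the pair of replicates 5 stood at 9.58 against 8.36. The target genes cyp1b1 and tiparp, which encode a cytochrome P450 and an ADP-ribosyltransferase that feeds back on the receptor, had changes of 0.08 ± 0.13 and 0.29 ± 0.19. The receptor's repressor genes ahrra and ahrrb had 0.07 ± 0.10 and −0.27 ± 0.25. The most variable member was ahr1a, at 9.30, 11.58, 6.02, 6.33 and 6.78 in TCDD fish and 7.45, 6.69, 8.73, 6.31 and 4.40 in DMSO fish.

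DNA methylation genes were examined since the mark can be carried by germ cells. The median change was −0.01 over 9 genes without TCDD replicate 2, and −0.05 with the covariate, and without the covariate all 9 intervals lay within 1 log2 unit of 0. The de novo methyltransferase gene dnmt3ba was lower at an unadjusted limma p of 0.0298, with 8.22, 6.95, 8.23, 8.10 and 6.96 in TCDD fish and 8.61, 8.19, 8.63, 8.33 and 8.21 in DMSO fish. Its change was −0.70 ± 0.27 (SE) over 10 arrays and −0.48 ± 0.19 without TCDD replicate 2, and −0.42 with the covariate, where the unadjusted limma p was 0.0519. TCDD replicates 1 and 3 lay between DMSO replicate 2 and DMSO replicate 4, so the groups overlapped. The maintenance genes dnmt1 and uhrf1 had changes of −0.26 ± 0.21 and −0.41 ± 0.24.

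Among markers of other cells, the oocyte growth factor gene gdf9 was lower at an unadjusted limma p of 0.0433 without TCDD replicate 2, with a change of −0.40 ± 0.17 (SE). It stood at 6.66, 5.70, 6.47, 6.19 and 5.98 in TCDD fish, against 7.03, 6.62, 6.41, 6.97 and 6.65 in DMSO fish. With the covariate the change of gdf9 was −0.42, at an unadjusted limma p of 0.0490. The other 6 oocyte genes ran from −0.19 to 0.11, and the list median was −0.10, and −0.20 with the covariate. The heme synthesis gene alas2, which marks red blood cells, was higher at an unadjusted limma p of 0.0415, with a change of 1.32 ± 0.55 (SE), and of 1.13 with the covariate, where the unadjusted limma p was 0.0756. Its signals were 10.26, 8.65, 8.62, 11.03 and 9.56 in TCDD fish, against 8.29, 9.12, 9.81, 9.16 and 6.73 in DMSO fish, so the groups overlapped. The 4 smooth muscle genes had a median change of 0.39 without TCDD replicate 2, and 0.39 with the covariate. Of these, acta2 and cnn1b were higher at an unadjusted p under 0.05 over 10 arrays, with changes of 0.76 and 0.76. Of all profiles, 5.43% were higher at that threshold. Without TCDD replicate 2 acta2 and cnn1b did not reach it, with changes of 0.57 and 0.51. The leukocyte list had a median of 0.58 over 4 genes, and 0.21 with the covariate. Its mean level was 8.48, 7.84, 8.59 and 10.05 in TCDD replicates 1, 3, 4 and 5. In DMSO replicates 1 to 5 it was 7.89, 8.83, 8.74, 8.04 and 7.49. The groups thus overlapped in the first set, and the pair of replicates 5 lay furthest apart. The fat list had 0.09 over 2 genes, and 0.12 with the covariate. The added skeletal muscle list had 0.01 over 6, and −0.04 with the covariate. No member of the fat or skeletal muscle list reached an unadjusted p under 0.05.

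The change in F1 was set beside that in F2 in 1 model over all 20 arrays. The difference between the F1 and F2 changes passed an adjusted p of 0.05 in 4 profiles (0.00607%), in limma with the array set as a term, and again in 4 without F1 TCDD replicate 2, but in 0 of the profiles with no array-set term, where the smallest adjusted limma p was 0.096 and 4096 had an unadjusted p under 0.05. None of the 4 carries a gene symbol. One of them, feature 13201649, stood at 6.05, 7.02, 6.16, 5.60 and 4.63 in F1 TCDD fish and at 7.5, 7.89, 6.57, 7.04 and 6.73 in F1 DMSO fish, a change of −1.25. In F2 its change was 1.62, with an adjusted limma p of 0.0266 over the F2 arrays, so that the lineages differed in opposite directions. Feature 13221035 likewise had −0.77 in F1 and 1.68 in F2. Features 13028475 and 13271859 had F1 changes of only 0.05 and −0.16. Their F2 changes were −2.81 and −2.57, with adjusted limma p of 0.00176 and 0.00341 over the F2 arrays. Of the profiles at an unadjusted p under 0.05 in F1, 37.6% had the same sign of change in F2 in either fit, against 43.5% of all profiles over 10 arrays and 43.1% without TCDD replicate 2.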

How the data were processed

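Total RNA of testicular tissue was biotin-labelled and hybridised to 1-colour whole-transcript Affymetrix arrays, 1 fish per array. The authors deposited 1 table of log2 signals between 1.17 and 14.33. The submitters' processing notes name Affymetrix Expression Console, while its version, summarisation and normalization are not given in the sources used here, and the log2 scale was read from the values. Gene names came from the platform annotation, in which 20856 features have 1 symbol, 805 several and 53551 are not listed, and RefSeq was used to update symbols and for gene neighbourhood. A list gene is read on its brightest single-gene feature.

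The model held lineage and array set (lmFit and eBayes of limma 3.58.1, under R 4.3.3), with two-sided p-values and Benjamini-Hochberg adjustment over 65942 profiles and no filter. Array summaries were compared by exact permutation within sets. Genes named are the 12 higher and 12 lower with the smallest p among profiles whose groups do not overlap, in each fit, and all list members. Members and lists were chosen with earlier results of these data known. The lists of digestive organs and skeletal muscle, and the covariate, were added after seeing the data. The fits were also run on simulated data with independent normal residuals. Those data held no array of another tissue and no signal shared between profiles, and no result here rests on them. Alternatives covered centring, normalization, trend, weights, filters, blocks and leaving out each fish.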

Additional observations from a re-analysis of the deposited data

Results flagged for a closer look

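Dixon's test was run on 134 groups of 5 F1 fish over array summaries, list means and named genes. In 26 of them 1 fish lay far from the other 4. About 6.7 would be expected by chance in 134 independent groups not chosen from the data. The genes were chosen from these data, some with TCDD replicate 2 left out, and the groups are not independent. The 26 can therefore not be read against 6.7. In the TCDD group, replicate 2 stood apart in the interquartile range (2.81), the array SD (2.1), the Sertoli list (7.05), and in selp (7.59), ndufa4b (12.41), adgre13 (10.02), egln2 (9.98), agap2 (8.18), dcsignlg (6.57) and inka1b (7.40). TCDD replicate 5 stood apart in the array median (6.22), arhgef10la (5.75) and or90d3 (6.16), and TCDD replicate 1 in or90b2 (7.21) and or90e2 (5.52). In the DMSO group, replicate 5 stood apart in the array median (6.16), the means of the lowest bin (2.85) and the highest bin (10.13), and in 5 list means. These were Leydig (9.58), spermatogonia (9.91), aryl hydrocarbon receptor (7.17), steroid and gonadotropin receptors (7.85) and DNA methylation (8.33). It also stood apart in egln2 (7.92) and or90a1 (4.57), and DMSO replicate 3 in the added intestine list (9.52). Replicates 5 belong to the array set with lower signals, and no array set was removed for this check.

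The lineage change differed between F1 and F2 past the adjusted threshold in 4 profiles without a gene symbol, by 2.85, −2.87, −2.45 and 2.41 log2 units, with adjusted limma p between 0.0265 and 0.0384. With no array-set term, 0 profiles passed, and the smallest adjusted limma p was 0.096.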

How the results depend on the processing

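No lineage change passed the adjusted threshold over 10 arrays except 1 profile in the model of all 20 arrays (feature 13056712, with no gene symbol) and 1 without TCDD replicate 4. Leaving out each fish gave 0 to 1 such profiles over 10 arrays and 0 to 0 without TCDD replicate 2. Profiles at an unadjusted p under 0.05 numbered 2556 with no array-set block, 3590 within replicates 1 to 4 and 2440 with the dimmer 50% left out, and 3590 to 9789 when each fish was left out. Without TCDD replicate 2 they numbered 1425 with no array-set block and 2376 with the dimmer 50% left out, and 3734 to 6417 when each further fish was left out. With the replicate block they numbered 5841 over 10 arrays and 3226 without TCDD replicate 2, and the block changed no other call. Whether the numbers pair the fish cannot be told from these values. In replicates 1 to 4, deviations of same-numbered fish correlated at 0.145, 0.083, −0.003 and 0.266. Those of differently numbered fish correlated at −0.209 to 0.252. For TCDD replicates 1, 2 and 4 the same-numbered DMSO fish had the highest correlation.

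The median change over 10 arrays was 0.018 after median centring, 0.024 after quantile normalization, 0.021 with array weights and −0.064 with the dimmer 50% left out, and 0.016 to 0.067 when each fish was left out. Without TCDD replicate 2 it was −0.018 after centring, −0.042 with the dimmer 50% left out, and 0.0041 to 0.022 over fish. The median absolute change was 0.14 with array weights over 10 arrays and 0.16 to 0.28 over fish. Without TCDD replicate 2 it was 0.13 within replicates 1 to 4, 0.13 with array weights, 0.14 with the covariate and 0.13 to 0.19 over fish. The highest minus lowest bin was −0.19 after quantile normalization and −0.12 with array weights, and ran from −0.39 to −0.14 over fish. Without TCDD replicate 2 it was −0.080 within replicates 1 to 4, −0.076 after quantile normalization, −0.079 with array weights, −0.11 with the covariate and −0.10 with levels from F2, and −0.18 to −0.080 over fish, −0.080 being without TCDD replicate 5 or DMSO replicate 5. The cause of these shifts was not tested.

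The spread ratio was 0.93 after quantile normalization, 1.28 with the dimmer 50% left out, 0.87 with every feature counted, 0.55 with all 5 replicates, and 0.16 to 1.05 over fish. The difference in interquartile range, −0.15, had an adjusted exact permutation p of 0.0317 when lineage was permuted over all 10 arrays and 0.0429 after median centring, where 3 summaries were tested. Over fish it was −0.18 to −0.084, that of the median 0.027 to 0.043, of the lowest bin 0.031 to 0.11 and of the highest bin −0.34 to −0.083. Without TCDD replicate 4 the range, median and highest bin had an adjusted exact p of 0.019, and the lowest bin 0.0286. Without TCDD replicate 3 the range and lowest bin had 0.0286. The F1 against F2 count was 0 with no array-set block, and 4 to 4 without F1 TCDD replicate 2. The named genes kept their direction and stayed short of the threshold in all 518 alternative values over 10 arrays and 522 without TCDD replicate 2. They were chosen for groups that do not overlap, so leaving out a fish or changing the block could not reverse their direction. The kept direction is therefore no test of it. No probe-level signal was used here, so dim profiles near background cannot be set apart.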
